A study of Rattus norvegicus with 60 samples.

Results

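Rab GTPases are small GTP-binding proteins that mark intracellular membranes and direct the budding, transport, tethering and fusion of vesicles. A Rab is active and membrane-bound with GTP and inactive with GDP. Guanine nucleotide exchange factors (GEFs) switch it on, GTPase-activating proteins (GAPs) switch it off, an escort protein presents newly made Rabs for lipid attachment, and effectors such as motors and tethers bind the active form. In neurons, Rab3 and Rab27 proteins act in the release of synaptic vesicles and dense-core granules, Rab5 and Rab7 in early and late endosomes, Rab11 in recycling endosomes, and Rab1, Rab2 and Rab6 between the endoplasmic reticulum and the Golgi.

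The family was taken as all genes whose only annotated symbol is Rab followed by a number and optional letter. That gave 56 of the 14217 genes with a single symbol on the array, measured by 97 probe sets (sets of short array probes read as 1 value). Of these genes, 29 had 1 probe set and 27 had several, with up to 5 for Rab14 and Rab5b. Expression is given as log2 of the deposited intensity, and levels are compared only within a probe set, since different probe sets respond differently. All 97 probe sets were tested, with no filter on low values, and 18 of them were dim, with a mean log2 intensity under 6. Where a gene had several, they are lettered from A for the brightest by their mean over all arrays.

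The animals were SD rats, and their sex and age are not given in the labels used here. For 21 days they received lithium chloride (LiCl, a mood stabiliser) at 0.2% in chow, chow vehicle, lamotrigine (an anticonvulsant also used in bipolar disorder) at 30 mg/kg by subcutaneous injection once daily, or the injection vehicle. Hippocampus, cortex and striatum were profiled with 5 arrays for each of the 12 combinations of region and treatment, 60 in all, and the labels name no disease model or genetic change in any group. The labels number the animals and make each array a separate sample, so the p-values measure the spread between samples within a group. The labels also call the tissue a mouse brain region and the drug delivery constant, against the stated organism and the once-daily injections.

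The arrays had median intensities between 93.5 and 101. Genes that mark each region were highest in the labelled region for 9 of 9 striatal, 6 of 9 hippocampal and 5 of 7 cortical markers. Choroid plexus genes were high on 10 of the 60 arrays, and leaving these arrays out was 1 of the alternatives run. These are bulk tissue samples, so fewer cells of a type and less RNA per cell cannot be told apart.

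Promoters are shown for 3 genes whose probe sets differed most clearly between regions, as descriptions of their start sites. The sequences are from RefSeq on the GRCr8 build, from 250 bases before to 50 bases after the annotated start, and capitals mark matches to a GC box (GGGCGG) or a CCAAT box on either strand.
Rab8b, chr8:76417499-76417798, minus strand: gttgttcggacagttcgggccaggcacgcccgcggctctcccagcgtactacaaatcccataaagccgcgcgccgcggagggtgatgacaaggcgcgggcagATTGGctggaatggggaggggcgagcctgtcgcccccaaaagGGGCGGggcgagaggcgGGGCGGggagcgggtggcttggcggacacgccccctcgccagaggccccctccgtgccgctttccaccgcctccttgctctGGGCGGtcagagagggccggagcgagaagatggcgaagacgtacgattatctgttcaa
Rab40b, chr10:107157326-107157625, minus strand: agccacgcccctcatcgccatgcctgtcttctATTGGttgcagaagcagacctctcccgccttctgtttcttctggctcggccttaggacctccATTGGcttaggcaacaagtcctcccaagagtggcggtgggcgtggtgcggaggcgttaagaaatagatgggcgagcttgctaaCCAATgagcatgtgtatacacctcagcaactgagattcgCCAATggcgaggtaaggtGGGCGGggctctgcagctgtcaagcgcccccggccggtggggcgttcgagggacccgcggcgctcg
Rab6a, chr1:164369783-164370082, plus strand: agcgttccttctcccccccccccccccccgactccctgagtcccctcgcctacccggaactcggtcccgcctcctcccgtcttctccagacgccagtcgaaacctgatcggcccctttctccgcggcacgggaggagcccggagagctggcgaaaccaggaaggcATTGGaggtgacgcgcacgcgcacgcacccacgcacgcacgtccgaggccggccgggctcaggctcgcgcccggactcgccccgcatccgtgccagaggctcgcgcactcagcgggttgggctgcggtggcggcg

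The Rab8b window held 32 CpG dinucleotides, 3 GC boxes and 1 CCAAT box. Rab40b had 21 CpGs, 1 GC box and 4 CCAAT boxes, and Rab6a had 38 CpGs, no GC box and 1 CCAAT box. RefSeq held 46 promoters of 45 of the 56 Rab genes. Of the 46, 78.3% had a GC box, against 33.1% of all 33469 promoters in the table, and the median number of CpGs was 21 against 7. A CCAAT box was as frequent in Rab promoters as in all (37% and 37.5%), and TATAAA occurred in 0 of the 46, against 14.2% of all. A match is a run of letters, not evidence of binding.

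Rab probe sets were called most often between brain regions. The comparison between regions asked how Rab expression is laid out in rats that received no drug, over the 10 vehicle arrays of each region (both vehicle arms). A probe set was called where its adjusted p was under 0.05, with adjustment over all 31042 probe sets tested. Between hippocampus and cortex 46 of 97 Rab probe sets were called (47.4%), 31 higher and 15 lower in hippocampus, against 42.4% of all probe sets (21.3% higher and 21.1% lower). Between striatum and cortex 58 were called (59.8%), 27 higher and 31 lower in striatum, against 55.9% of all (31.2% higher and 24.7% lower). The split became 36 to 27 with each array centred on its median and 31 to 25 with quantile normalization, so which direction held more calls turned with the scaling. For hippocampus against cortex it was 43 to 12 with each array centred. Between striatum and hippocampus 63 were called (64.9%), 17 higher and 46 lower in striatum, against 50.9% of all (27.4% higher and 23.5% lower), and the median Rab difference was -0.11 on the log2 scale against 0.04 over all. The 3 comparisons share arrays. The Rab share is near the background for both regions against cortex and above it for striatum against hippocampus, and was not tested against it.

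**Figure D1:**
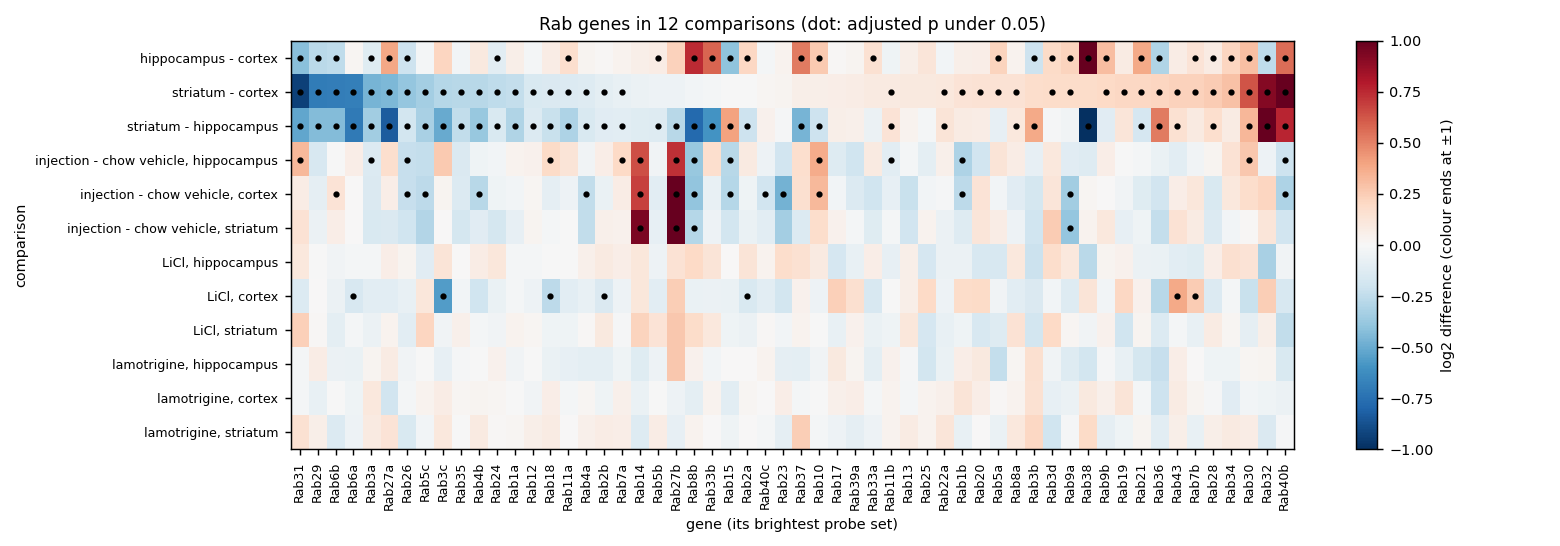
Log2 differences of the brightest probe set of each of the 56 Rab genes (columns, ordered by striatum minus cortex) in 12 comparisons (rows), with a dot on differences with an adjusted p under 0.05. In the region comparisons 30 (hippocampus minus cortex), 38 (striatum minus cortex) and 39 (striatum minus hippocampus) genes have a dot, against 14, 15 and 4 between vehicles in hippocampus, cortex and striatum, and 7 with LiCl in the cortex.

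Among the Rabs of regulated secretion, most striatal values lay below the hippocampal ones. Of 8 genes read by their brightest probe set, 6 were lower and 1 higher in striatum than in hippocampus, with a median difference of -0.31. Over the family 47.4% of probe sets were lower in this comparison and over all probe sets 23.5%, and the group was not tested against either. Rab3a, the main Rab of synaptic vesicles, had log2 intensities in hippocampus from 12.06 to 12.31 with a median of 12.23, in cortex from 12.14 to 12.53 with a median of 12.34, and in striatum from 11.70 to 12.003 with a median of 11.88. The striatal arrays did not overlap those of either other region. Striatum was lower than cortex by a log2 difference of -0.46 ± 0.03 (SE, n = 10 a region, adjusted p = 1.05e-18), and the second Rab3a probe set gave -0.48. The other Rab3 genes, which also act on secretory vesicles, were not alike. Rab3c was lower in striatum (-0.50 against hippocampus, -0.29 against cortex), Rab3b was higher in striatum than in hippocampus (0.38), and Rab3d was higher than in cortex in both hippocampus (0.19) and striatum (0.18). For Rab3d the hippocampal call and for Rab3c the call against cortex were lost within each vehicle arm alone.

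Rab27a, which docks dense-core and lysosome-related granules, was highest in hippocampus. Its 3 probe sets were lower in striatum than in hippocampus by -0.83, -0.82 and -0.46, and 2 of the 3 were higher in hippocampus than in cortex (0.60 and 0.39). All 3 were dim, with means over all arrays from 3.98 to 5.85. Rab37, found on secretory granules and also dim (mean 4.58), was higher in hippocampus than in cortex (0.52). It was lower in striatum than in hippocampus (-0.46). Rab26, also of secretory granules, was lower than in cortex in both hippocampus (-0.21) and striatum (-0.39).

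The Rabs with the widest regional differences belonged to different membranes. Rab38, which serves the biogenesis of lysosome-related organelles, ranged from 6.45 to 7.42 in hippocampus with a median of 6.87, from 5.18 to 5.81 in cortex with a median of 5.44, and from 5.49 to 5.90 in striatum with a median of 5.62. The hippocampal arrays did not overlap the others. Hippocampus exceeded cortex by 1.41 ± 0.09 (SE), or 2.67-fold (adjusted p = 1.14e-20). Rab32, its close relative on the same organelles, was instead highest in striatum and had its lowest median in hippocampus. It ranged from 6.43 to 7.30 in striatum with a median of 6.88, from 5.70 to 6.27 in cortex with a median of 5.98, and from 5.45 to 5.95 in hippocampus with a median of 5.78. Every striatal array was above every array of the other regions, and striatum exceeded hippocampus by 1.17 (2.26-fold) and cortex by 0.92 ± 0.09 (SE, 1.89-fold, adjusted p = 1.10e-12).

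Rab8b carries cargo from the Golgi to the plasma membrane. Its probe set A ranged from 9.37 to 10.01 in hippocampus with a median of 9.77, from 8.69 to 9.21 in cortex with a median of 8.9956, and from 8.75 to 9.20 in striatum with a median of 8.94. Hippocampus stood apart from both other regions, while cortex and striatum overlapped almost wholly. The difference between hippocampus and cortex was 0.74 ± 0.04 (SE), or 1.68-fold (adjusted p = 4.73e-23), and the other 2 probe sets gave 0.81 and 0.59.

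Rab40b, an atypical Rab that joins a ubiquitin ligase through a SOCS box, was highest in striatum. Values ran from 10.76 to 11.11 there with a median of 10.95, from 9.86 to 10.51 in hippocampus with a median of 10.21, and from 9.29 to 9.92 in cortex with a median of 9.68. Striatum did not overlap the other regions, and the lowest hippocampal arrays overlapped the highest cortical ones. Striatum exceeded cortex by 1.33 ± 0.06 (SE), or 2.51-fold (adjusted p = 2.61e-27), and the second probe set gave 1.29.

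Among 15 Rabs of the endoplasmic reticulum and Golgi, 6 genes were higher and 5 lower in striatum than in cortex, beside 31.2% and 24.7% of all probe sets. Rab6a, which drives transport within and back from the Golgi, ranged from 11.72 to 11.94 in striatum with a median of 11.86, from 12.45 to 12.65 in cortex with a median of 12.54, and from 12.45 to 12.72 in hippocampus with a median of 12.56. Striatum was below every array of the other regions, and hippocampus and cortex covered nearly the same range. The difference of striatum from cortex was -0.68 ± 0.03 (SE, adjusted p = 9.22e-26), and the second probe set gave -0.66. Rab6b, the neuron-enriched paralog, was lower in striatum than in cortex by -0.89 and -0.69 on its 2 probe sets. In the same group Rab30, a Golgi Rab, was higher in striatum than in cortex (0.63 and 0.44), Rab33b, which binds an autophagy protein, was higher in hippocampus than in cortex (0.59), and Rab2a, of ER to Golgi transport, was higher in hippocampus than in cortex (0.31 and 0.21).

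Of the 12 early endosome Rabs, 7 genes were lower and 1 higher in striatum than in hippocampus, beside 47.4% lower over the family and 23.5% lower over all probe sets. Rab31, which moves cargo between the trans-Golgi network and endosomes, ranged from 9.92 to 10.19 in cortex with a median of 10.04, from 9.11 to 9.90 in hippocampus with a median of 9.58, and from 8.91 to 9.41 in striatum with a median of 9.05. The cortical arrays lay above all others, and hippocampus and striatum overlapped. Striatum was 1.92-fold below cortex, a log2 difference of -0.94 ± 0.05 (SE, adjusted p = 6.20e-23), and the second probe set gave -0.82. The fusion Rabs of the early endosome differed less. Over 8 probe sets of Rab5a, Rab5b and Rab5c, differences of striatum from cortex lay between -0.34 and 0.15, with 2 called higher and 1 lower. Rab22a, an early endosome Rab, had 1 probe set called higher and 2 called lower in striatum against both other regions, so its direction is not settled by these probe sets.

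Rab11a, of recycling endosomes, was higher in hippocampus than in cortex by 0.17 and 0.19 and lower in striatum than in hippocampus by -0.30 and -0.32. Rab15, also of recycling endosomes, had the reverse order, lower in hippocampus than in cortex on 3 probe sets (-0.30 to -0.40). Over the 4 probe sets of Rab7a and Rab7b, of late endosomes and lysosomes, the differences of striatum from hippocampus lay between -0.11 and 0.14, with 1 called lower. Rab29, a Golgi and lysosome Rab that works with the kinase LRRK2, was lower in striatum than in cortex (-0.70). Rab14, between Golgi and endosomes, had 1 of 5 probe sets called between striatum and hippocampus (-0.14, adjusted p = 0.0321), a call that was lost in 13 of 28 alternatives and reversed, without a call, in 1.

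**Figure D2:**
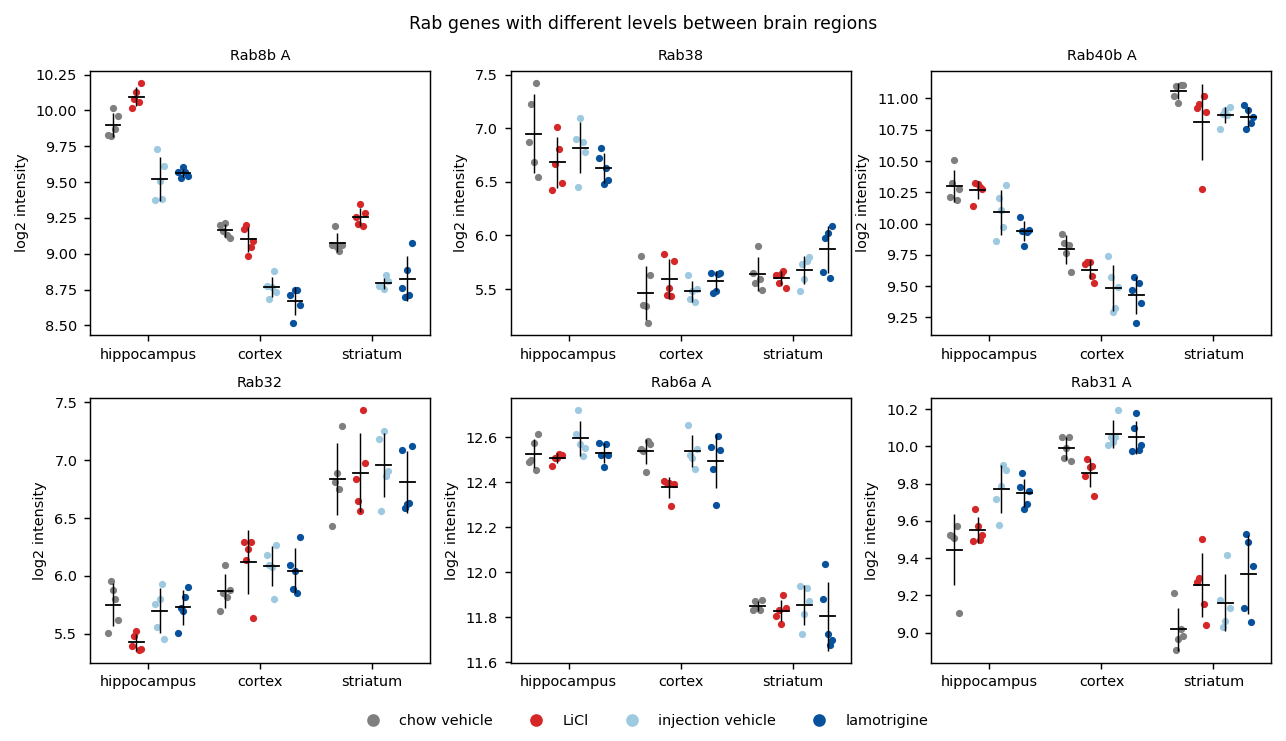
Log2 intensity of 6 Rab probe sets on each array, by region and treatment (5 points a group, with bars for mean ± SD). Rab8b and Rab38 are highest in hippocampus, Rab40b and Rab32 in striatum, Rab6a is lowest in striatum and Rab31 highest in cortex, by the group means of all 4 treatments.

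The regions also differed in cell type markers. Of 12 neuron marker genes, 9 were lower and 2 higher in striatum than in cortex, and the mean log2 level of the list ran from 10.55 to 11.004 in striatum against 11.25 to 11.46 in cortex and 11.29 to 11.42 in hippocampus. Of 9 oligodendrocyte markers, 9 were higher in striatum than in cortex, with list means from 11.66 to 12.43 against 10.19 to 11.45. Between striatum and hippocampus 8 of 9 oligodendrocyte and 7 of 7 endothelium markers were higher, and 7 of 8 astrocyte and 9 of 12 neuron markers lower. Between hippocampus and cortex 9 of 9 oligodendrocyte markers were higher and 7 of 7 endothelium markers lower. The part of cell composition in the Rab differences was not tested. In the region comparisons, probe sets of one gene mostly had the same sign. Of the 27 genes with several probe sets, all probe sets shared a sign in 20 genes for hippocampus minus cortex, 18 for striatum minus cortex and 21 for striatum minus hippocampus. Agreement was lower in most other comparisons. In hippocampus, cortex and striatum it held for 17, 17 and 16 genes between vehicles, 10, 19 and 15 with LiCl, and 15, 10 and 12 with lamotrigine.

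The second comparison set the injection vehicle against the chow vehicle, neither of which contained a drug. The arms differed in how the vehicle was given and in the animals, and any batch that followed the arm cannot be told apart from it. In hippocampus 31 of 97 Rab probe sets were called (32%), 19 higher and 12 lower with the injection vehicle, against 18.5% of all probe sets (10.9% higher and 7.6% lower). In cortex 33 were called (34%), 15 higher and 18 lower, against 18.9% (8.92% higher and 10% lower). In striatum 14 were called (14.4%), 7 higher and 7 lower, against 6.83% (3.83% higher and 3% lower). The Rab share was above the background in each region and was not tested against it. In hippocampus the split of 19 to 12 became 18 to 18 with each array centred on its median and 16 to 16 with quantile normalization. There, the array median intensities of the injection vehicle (97.3 to 100.1) lay above those of the chow vehicle (93.5 to 96.2), and their part in the result was not tested. In hippocampus 3 of 10 microglia and 2 of 9 oligodendrocyte markers were higher and 2 of 7 endothelium markers lower with injection vehicle, and in cortex 2 of 7 cortex markers were higher and 3 lower. The Gapdh signal at the 3′ end minus that at the 5′ end, a sign of RNA integrity, had means of -0.05 against 0.02 in hippocampus, 0.02 against 0.07 in cortex and 0.004 against 0.101 in striatum (log2, injection against chow vehicle), and the groups overlapped in each region. The same measure for Actb was higher with injection vehicle in each region, where that for Gapdh was lower. Its means were 1.26 against 1.15 in hippocampus, 1.45 against 1.27 in cortex and 1.26 against 1.22 in striatum, with overlap in each. The part of these markers and signs in the Rab differences was not tested. Adding the spread of log2 values on an array as a covariate left 8 calls in hippocampus, of Rab2a, Rab5a, Rab6a, Rab7a, Rab8b, Rab10 and Rab14. The share of all probe sets called with this covariate is not given here.

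Of the 97 Rab probe sets, 25 (16 genes) were called in at least 2 regions and 10 (6 genes) in all 3, and all 25 had the same sign in the 3 regions. The rats of an arm contributed tissue to several regions, so the regions are not independent. The same counts were not made over all probe sets, so they are not read as particular to Rab genes.

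Rab10 and Rab27b had the largest rises in hippocampus. Rab10, which moves glucose transporters and axonal membrane to the cell surface, was read in hippocampus at 8.29, 8.15, 8.15, 8.39 and 8.14 with chow vehicle and at 9.17, 9.25, 9.22, 9.39 and 9.17 with injection vehicle. The groups did not overlap. The difference was 1.02 ± 0.07 (SE, n = 5 a group, 2.02-fold, adjusted p = 2.41e-09), with 0.67 in cortex and 0.50 in striatum, each called. The brighter Rab10 probe set rose by 0.37 in hippocampus and 0.33 in cortex and gave 0.17 in striatum without a call.

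Rab27b, a Rab of synaptic and secretory vesicles, rose on both of its probe sets in every region. In hippocampus the dimmer probe set read 5.65, 5.95, 5.52, 5.89 and 5.66 with chow vehicle and 6.51, 6.53, 6.95, 6.43 and 6.66 with injection vehicle. Again no array of the first group reached the second. The differences were 0.88 ± 0.12 in hippocampus (SE, adjusted p = 1.35e-05), 0.68 ± 0.13 in cortex and 0.86 ± 0.11 in striatum, and the other probe set gave 0.73, 1.05 and 1.12. In hippocampus neither was called with the array spread as a covariate.

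Rab6a was higher with the injection vehicle on its second probe set. In hippocampus it read 10.0014, 10.03, 9.91, 10.22 and 9.71 with chow vehicle and 10.79, 10.75, 10.75, 10.83 and 10.63 with injection vehicle, with no overlap. The difference was 0.77 ± 0.07 (SE, adjusted p = 9.63e-08) and 0.63 in cortex, and it was 0.37 in striatum (adjusted p = 0.148). Rab22a, of early endosomes, rose on 1 probe set in hippocampus (0.49), cortex (0.35) and striatum (0.34). Rab5a, which drives early endosome fusion, rose on 1 probe set in hippocampus (0.60) and cortex (0.36), and Rab7a, of late endosomes, in hippocampus (0.38) and cortex (0.21). Rab30 rose in hippocampus (0.48) and cortex (0.65), and Rab31 in cortex (0.34) and striatum (0.39).

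Other Rabs were lower with the injection vehicle. Rab1b, of ER to Golgi transport, fell on 4 of 4 probe sets in hippocampus and cortex (-0.26 to -0.46) and on 2 of 4 in striatum (-0.36 and -0.29). Rab8b fell in every region on the probe set shown above (-0.38, -0.40 and -0.28 in hippocampus, cortex and striatum), while another of its probe sets rose in hippocampus (0.38). Rab15 and Rab26 fell in hippocampus and cortex (-0.28 and -0.28 for the brightest Rab15 probe set, -0.23 and -0.23 for Rab26), and Rab9a, which returns cargo from late endosomes to the Golgi, fell in cortex (-0.35) and striatum (-0.39). Rab23, which acts in Hedgehog signalling and at the cilium, fell in cortex (-0.47). Of the 5 probe sets of the Rab3 genes, 1 (Rab3a, -0.13 in hippocampus) was called in any region. The Rab11 genes had 1 call among 4 probe sets in hippocampus and none in cortex or striatum.

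**Figure D3:**
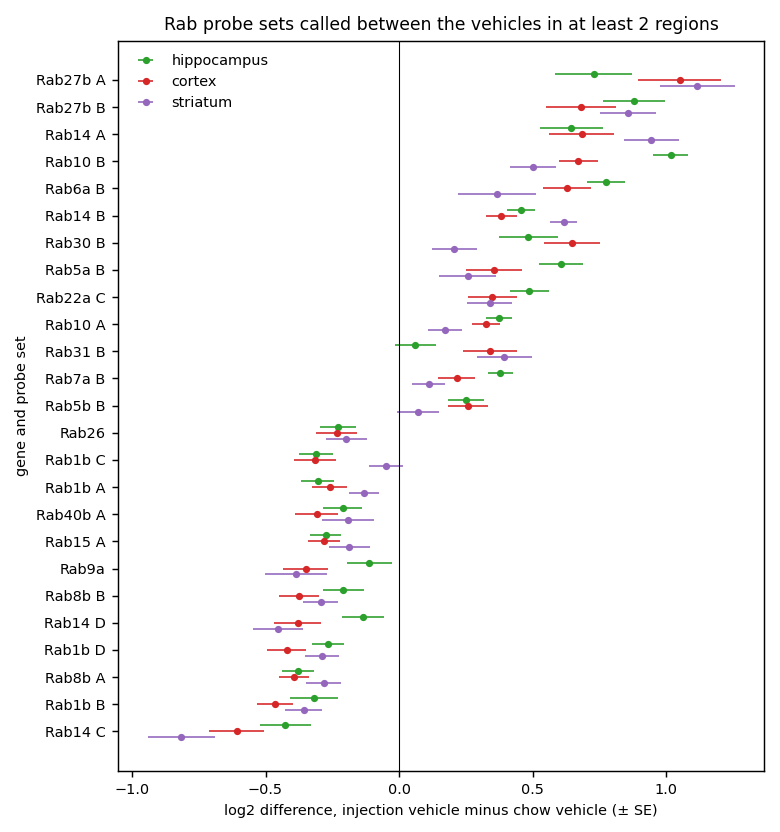
Log2 difference of injection vehicle minus chow vehicle (± SE, n = 5 arrays a group) in 3 regions, for the 25 Rab probe sets called in at least 2 regions. Each probe set lies on the same side of 0 in hippocampus, cortex and striatum, from Rab27b A and B, Rab14 A and Rab10 B at the high end to Rab14 C at the low end.

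Rab14 stood out because its own probe sets moved in opposite directions between vehicles. In striatum Rab14 A read 10.32, 10.24, 10.35, 10.38 and 10.43 with chow vehicle and 11.21, 11.42, 11.58, 11.09 and 11.14 with injection vehicle. On the same arrays Rab14 C read 9.81, 10.11, 9.91, 9.93 and 9.9995 with chow vehicle and 9.40, 8.84, 8.69, 9.33 and 9.41 with injection vehicle. Neither pair of groups overlapped, and the direction was up for A and down for C.

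The differences were 0.94 ± 0.10 (SE, adjusted p = 4.51e-06) and -0.81 ± 0.13 (SE, adjusted p = 0.000299). In cortex they were 0.68 and -0.61, and in hippocampus 0.64 and -0.43, each called. Rab14 B rose with Rab14 A in every region (0.46, 0.38 and 0.62 in hippocampus, cortex and striatum), and Rab14 D fell with Rab14 C in cortex (-0.38) and striatum (-0.45). Over the 60 arrays Rab14 A and Rab14 C correlated at r = -0.80, given as a description since the arrays share groups. The probe sequences and transcript positions of these sets were not used here, so whether they read different Rab14 transcripts was not tested, and no direction is given for the gene.

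**Figure D4:**
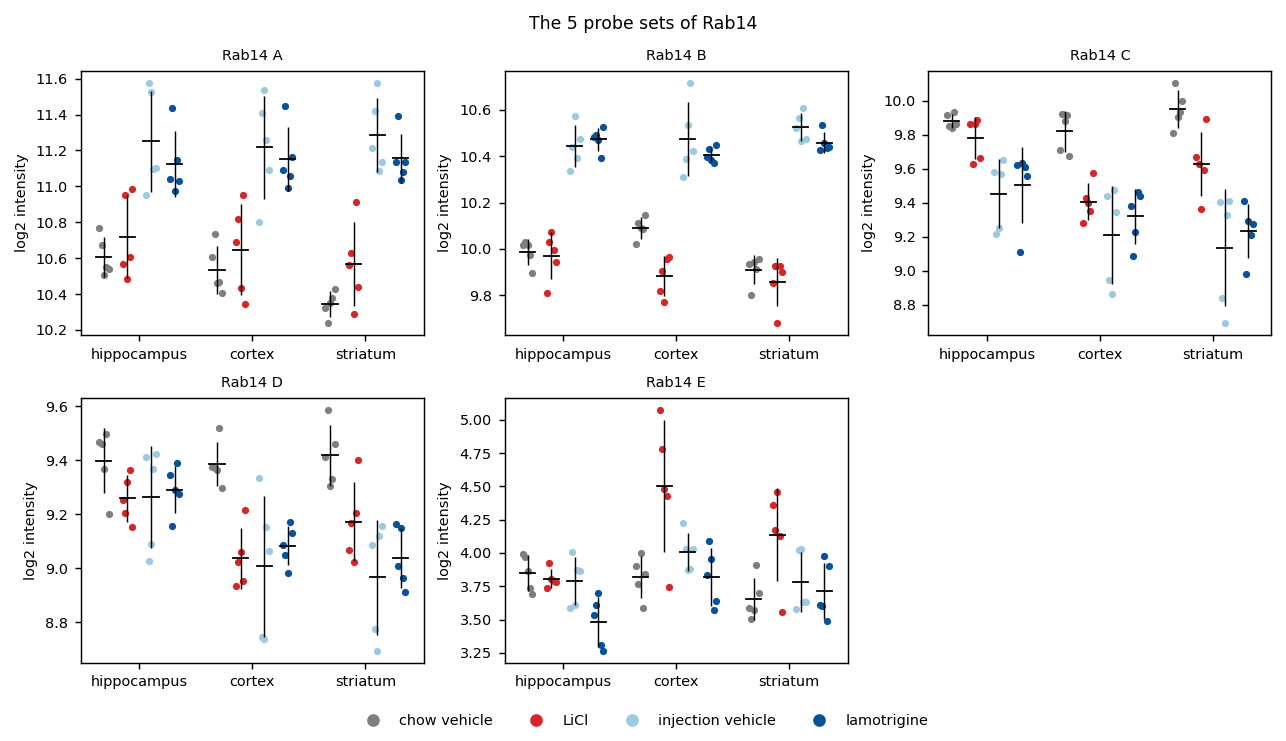
Log2 intensity of the 5 Rab14 probe sets on each of the 60 arrays, by region and treatment, with group means. Rab14 A and Rab14 B have higher means in the injection vehicle than in the chow vehicle group of every region, and Rab14 C has lower ones.

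The third comparison asked what LiCl did to Rab expression against chow vehicle. In cortex 17 of 97 Rab probe sets were called (17.5%), 3 higher and 14 lower, against 13.4% of all probe sets (5.22% higher and 8.2% lower). They belonged to 13 genes. The median Rab difference was -0.06 against -0.00115 over all probe sets, and 72 of 97 Rab values were below 0. Most Rab probe sets were brighter than the median probe set of the cortical arrays (mean 6.60 with LiCl and with chow vehicle), and 18 of 97 were dim. The part of brightness in this shift was not tested. In hippocampus 0 were called by limma, against 0.235% of all probe sets. There 16 of the 97 had an unadjusted p under 0.05, against 4827 of all 31042. In striatum 0 were called, against 0% of all. There 17 of the 97 had an unadjusted p under 0.05, against 3828 of all 31042.

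The cortical calls depended on how the arrays were scaled. With quantile normalization 4 Rab probe sets were called, 3 of them among the 17, and the split was 3 higher to 1 lower. The share of all probe sets called under that setting is not given here, so the loss is not read as particular to Rab genes. Adding the array spread as a covariate left 0 calls, of Rab and of all probe sets alike. Leaving out 1 array gave 9 calls without LiCl 1, 8 without LiCl 3, and 7 without chow vehicle 2 or chow vehicle 4. The cortical arrays of the LiCl group had a narrower spread of log2 values (3.37, from 3.29 to 3.44) than those of chow vehicle (3.58, from 3.56 to 3.61), with no overlap. Neuron markers (list mean 11.22 against 11.35, with 0 of 12 called higher and 2 lower) and cortex markers (8.39 against 8.62, with 0 of 7 higher and 3 lower) were lower, and choroid plexus genes higher (6.16 against 5.83, with 2 of 10 higher and 0 lower), with no overlap of the list means. The part of these in the Rab calls was not tested.

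Rab3c, a synaptic vesicle Rab, had the largest fall. It read 5.87, 6.46, 6.10, 6.54 and 6.30 with chow vehicle and 5.36, 5.72, 5.63, 5.99 and 5.76 with LiCl. All LiCl arrays were below the chow vehicle mean, although the highest LiCl array exceeded the lowest chow array. The difference was -0.56 ± 0.15 (SE, n = 5 a group, 1.47-fold lower, adjusted p = 0.0208), and it was also called with quantile normalization. The other 4 Rab3 probe sets had negative differences and no call.

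Of the 15 ER and Golgi Rabs, 4 were lower and 1 higher by their brightest probe set, beside 8.2% lower and 5.22% higher over all probe sets. Rab2a, of ER to Golgi transport, read on its probe set B 10.98, 11.16, 11.05, 11.21 and 10.93 with chow vehicle and 10.71, 10.76, 10.79, 10.86 and 10.82 with LiCl. The groups did not overlap, and the difference was -0.28 ± 0.07 (SE, adjusted p = 0.0170). Its brighter probe set A (-0.15), Rab2b (-0.14), Rab6a (-0.16) and Rab6b (-0.24) were called lower too.

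Rab18, of the endoplasmic reticulum and lipid droplets, read 10.40, 10.50, 10.45, 10.43 and 10.36 with chow vehicle and 10.10, 10.14, 10.36, 10.10 and 10.15 with LiCl. The groups met at 10.36 without crossing. The difference was -0.26 ± 0.06 (SE, adjusted p = 0.00922). Rab5a was lower on 1 probe set (-0.31 ± 0.10, adjusted p = 0.0459), as were Rab11b (-0.25), of recycling endosomes, Rab12 (-0.24), which sends receptors to lysosomes, and Rab40b (-0.38).

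Rab43 and Rab7b, which both act near the Golgi and late endosomes, were higher. Rab43 was dim and read 4.55, 4.84, 4.86, 4.96 and 4.80 with chow vehicle and 5.34, 5.12, 5.17, 5.04 and 5.25 with LiCl, with no overlap. The difference was 0.38 ± 0.09 (SE, adjusted p = 0.0101), and Rab7b gave 0.25. Rab14 had calls in both directions again. Rab14 C fell by 0.41 on the log2 scale, Rab14 D by 0.35 and Rab14 B by 0.21, while the dimmest, Rab14 E, rose by 0.68 ± 0.16 (SE, adjusted p = 0.0110), with 1 of 5 LiCl arrays inside the chow vehicle range.

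**Figure D5:**
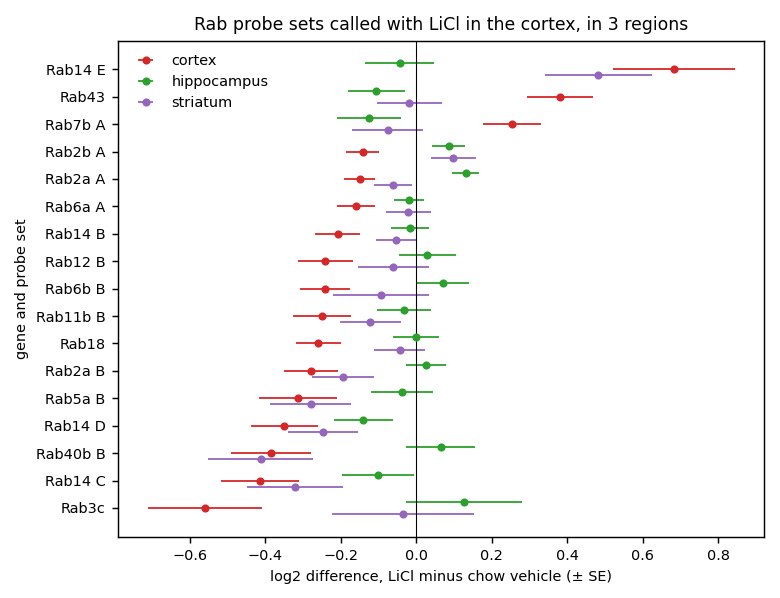
Log2 difference of LiCl minus chow vehicle (± SE, n = 5 arrays a group) in 3 regions for the 17 Rab probe sets called in cortex. In cortex 14 lie below 0 and 3 above, and hippocampal values of most probe sets lie near 0. In striatum Rab40b B (-0.41) and Rab14 E (0.48) lie on the same side of 0 as in cortex. Rab2b A (0.10), Rab7b A (-0.08) and Rab43 (-0.02) lie on the opposite side there.

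In hippocampus the Rab probe sets with the smallest p under LiCl were Rab22a (0.34 ± 0.07, SE, adjusted p = 0.0596), 1 probe set of Rab27a (-0.43 ± 0.11, adjusted p = 0.0892) and 1 of Rab2a (0.13, adjusted p = 0.104). In striatum they were Rab8b (0.23, adjusted p = 0.216), Rab30 (-0.29, adjusted p = 0.221) and Rab14 E (0.48, adjusted p = 0.228). None passed the test. The Rab5 probe sets ranged from -0.16 to 0.02 in hippocampus and from -0.28 to 0.21 in striatum, and those of Rab7 from -0.12 to 0.12 and from -0.12 to -0.01. The Rab11 probe sets ranged from -0.08 to 0.04 in hippocampus and from -0.12 to 0.05 in striatum.

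An F test in the fit of all arrays asked whether the LiCl difference itself varied from region to region. It was called for 24 of 97 Rab probe sets (24.7%, 20 genes), against 17.2% of all probe sets. With quantile normalization 9 were called and with the array spread as a covariate 0. The shares of all probe sets called under these settings are not given here. Rab2a A differed by 0.13 in hippocampus, -0.15 in cortex and -0.06 in striatum (adjusted p = 0.000531). Rab8b B differed by 0.26, -0.15 and 0.23 in the same order (adjusted p = 0.00169). Rab22a (0.34, -0.13 and 0.01, adjusted p = 0.00493) and Rab43 (-0.11, 0.38 and -0.02, adjusted p = 0.00199) had opposite signs in hippocampus and cortex. The cortical value was the highest of the 3 regions in 10 of the 24 and the lowest in 12. Of those 10, the Rab43, Rab25, Rab17, Rab14 E, Rab20 and Rab19 probe sets were dim, and Rab7b and Rab1b A were not. Of those 12, only Rab27a C was dim. The part of brightness in these directions was not tested. Without cortex LiCl 5 the F test called 13.

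Lamotrigine gave no Rab call in any region. Against the injection vehicle, limma called 0 of 97 Rab probe sets in hippocampus, cortex and striatum, against 0.00322%, 0% and 0% of all probe sets. At an unadjusted p under 0.05 were 7, 3 and 2 Rab probe sets, against 3063, 1799 and 1193 of all 31042. The smallest p in hippocampus were those of Rab5a (-0.24, adjusted p = 0.217), Rab14 E (-0.31, adjusted p = 0.279) and Rab21 (-0.18, adjusted p = 0.299), an endosomal Rab of integrin traffic. In cortex they were Rab17 (0.23) and Rab20 (0.22, both adjusted p = 0.817), then Rab3a (0.25, adjusted p = 0.855). In striatum they were Rab27a (0.16), Rab6b (-0.14) and Rab3b (0.21), each with an adjusted p of 0.997.

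The families named in every comparison held no call under lamotrigine. Rab7 probe sets lay between -0.08 and 0.08 over the 3 regions, and Rab11 probe sets between -0.08 and 0.06. Rab3 probe sets lay between -0.20 and 0.25, Rab27 between -0.19 and 0.27, Rab5 between -0.24 and 0.19, and Rab14 between -0.31 and 0.11. The lamotrigine effect by region was called for 0 of 97 Rab probe sets, against 0% of all. An unadjusted p under 0.05 was held by 8 of the 97, against 1715 of all 31042.

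The proteins that load, switch and bind Rabs were read from a list of 151 genes, of which 126 were measured, with the brightest probe set standing for each. In the cortex with LiCl 3 were higher and 20 lower, beside 5.22% higher and 8.2% lower over all probe sets. Chm, the Rab escort protein, was lower (-0.51), as were the Rab27 effector Exph5 (-0.50) and rabphilin Rph3a (-0.42), an effector of Rab3 on synaptic vesicles. The Rab27a effector melanophilin (Mlph, 0.41) and the Rab11 effectors Sh3tc2 (0.40) and Rab11fip1 (0.34) were higher. By class, 4 of 11 genes of lipid attachment and carriers, 3 of 29 GEFs, 4 of 33 GAPs and 9 of 52 effectors were lower, and the counts for GEFs and GAPs are near that share. With the array spread as a covariate 0 of all probe sets were called in this comparison.

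Between vehicles, 20 of the 126 were higher and 10 lower with injection vehicle in hippocampus, 11 higher and 18 lower in cortex, and 4 higher and 5 lower in striatum. Over all probe sets the shares were 10.9% higher and 7.6% lower in hippocampus, 8.92% and 10% in cortex, and 3.83% and 3% in striatum, which the lower count in hippocampus and the higher counts in cortex and striatum are near. Chm was higher in hippocampus (1.07) and cortex (0.66). Rims1, an active zone scaffold that binds Rab3, was higher in hippocampus (0.60), cortex (0.68) and striatum (0.65), and Myo5a, a motor that carries Rab-bound vesicles, in cortex (0.55) and striatum (0.66). The GAP Rabgap1l was lower in cortex (-0.41) and striatum (-0.57). Ppm1h, a phosphatase of Rab proteins, was lower in hippocampus (-0.27), cortex (-0.34) and striatum (-0.36). With LiCl in hippocampus and striatum and with lamotrigine in every region, 0 of the 126 were called by limma.

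Over all comparisons, 3 of the 56 Rab genes, Rab13, Rab25 and Rab39a, had no probe set called in any of the 12 comparisons between regions, vehicles or treatments, although the F test called Rab25. Rab25 and Rab39a were dim (means of 5.85 and 3.88). The same count was not made over all genes, so it is not read as particular to Rab genes. Rab13 and Rab25 are known from epithelial cells, at tight junctions and in apical recycling.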

How the data were processed

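The 60 samples were profiled on Affymetrix rat arrays from total RNA extracted with Trizol and labelled as biotinylated cRNA. Per the submitters' processing notes the authors normalized the arrays with RMA in R 2.7.2. The deposited table holds linear intensities, between 6.93 and 28582.45, not the log2 values that had been assumed when the tests were designed. Here log2 of the deposited intensity was taken with no pseudocount and no further normalization. Of 31099 probe sets, 57 controls were left out and 31042 tested. Symbols came from the platform annotation (20826 probe sets with 1 symbol, 436 with several, 9780 unnamed). All 97 Rab symbols matched the RefSeq table unchanged, and 3 probe sets annotated to several genes with a Rab symbol were left out. RefSeq coordinates are given only for promoters.

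Differences were tested with limma 3.58.1 in R 4.3.3 (lmFit and eBayes with a trend), in 1 fit of 20 arrays and 4 groups a region. Region contrasts and the F tests (2 degrees of freedom) of a drug effect by region came from 1 fit of all 60 arrays, with the animal number as a random block (consensus correlation 0.133). Tests were two-sided, with Benjamini-Hochberg adjustment over all 31042 probe sets and calls at an adjusted p under 0.05. The labels number 24 animals, and in hippocampus the numbers of the chow arms partly differ from those of the other regions. Replicate numbers did not pair samples within a region. On simulated data, 76% of changes of 0.5 and 97% of changes of 1 on the log2 scale were recovered in the cortical LiCl comparison, 96% and 97% in striatum minus cortex, and 64% and 94% in the LiCl effect by region. The share of false calls was 8.47%, 3.98% and 6.51% in the same order. Those data held 100 changed probe sets of each size among 31042. The cortical LiCl comparison of the deposited arrays called 13.4% of all probe sets, and its groups differed in array spread. Whether the recovered and false shares hold for the deposited arrays was not tested. The number of arrays limits the precision. No pair of arrays was identical (highest correlation 0.9956).

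Named probe sets are the 10 largest called rises and falls of each drug or vehicle comparison, the 8 largest each way between regions, those of genes called in opposite directions, those called in an F test, the 3 smallest p where a drug comparison had no call, and the Rab3, Rab5, Rab7, Rab11, Rab14 and Rab27 genes throughout. Only some of them are printed, and the rest are given by counts and ranges. The brightest probe set stands for a gene where genes are counted. The members, role groups, regulator list and marker lists were chosen with earlier results of these data known. Alternatives were quantile normalization, centring, the spread of an array as a covariate, a filter on dim probe sets, 1 fit of 60 arrays, blocks by replicate number, arrays high in choroid plexus genes left out, region contrasts in 1 vehicle arm or without the animal block, and each array left out in turn.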

Additional observations from a re-analysis of the deposited data

Results flagged for a closer look

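The LiCl effect differed between regions, by the F test, for 24 Rab probe sets. Adjusted p was 0.000531 for Rab2a A, 0.00169 for Rab8b B, 0.00199 for Rab43, 0.00443 for Rab2b, 0.00493 for Rab22a and 0.00541 for Rab5b A. It was 0.0110 for Rab25, 0.0120 and 0.0152 for the Rab17 probe sets, 0.0151 for Rab28, 0.0156 for Rab7b, 0.0156 and 0.0257 for the Rab31 probe sets, 0.0188 for Rab14 E and 0.0208 for Rab8b A. It was 0.0215 and 0.0456 for the Rab20 probe sets, 0.0242 for Rab19, 0.0335 for Rab1b A, 0.0341 for Rab27a C, 0.0373 for Rab30 A, 0.0381 for Rab18, 0.0389 for Rab8a and 0.0469 for Rab40b B. Of these 24, Rab2a A, Rab43, Rab2b, Rab7b, Rab14 E, Rab18 and Rab40b B were also called with LiCl in cortex. The others, Rab25 and Rab17 among them, had no LiCl call in any single region.

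A single array stood apart from its group by Dixon's limit (0.71 for 5 samples) in 16 of 240 groups of the 20 probe sets examined, and chance gives about 1 in 20. With LiCl, Rab3c in hippocampus 1 read 5.97 (others 6.57 to 6.67), Rab43 in hippocampus 3 read 4.69 (4.88 to 4.93), Rab40b in hippocampus 1 read 10.14 (10.27 to 10.32) and in striatum 3 read 10.28 (10.89 to 11.02). In cortex with LiCl, Rab18 read 10.36 in sample 3 (10.10 to 10.15), Rab6a A 12.30 in sample 4 (12.39 to 12.41) and Rab32 5.64 in sample 5 (6.14 to 6.30).

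With chow vehicle, Rab14 B read 9.80 in striatum 2 (9.92 to 9.96), Rab6a B 9.26 in striatum 3 (9.44 to 9.51), Rab8b A 9.20 in striatum 2 (9.02 to 9.06) and Rab31 A 9.11 in hippocampus 5 (9.51 to 9.57). With injection vehicle, Rab31 A read 10.19 in cortex 5 (10.005 to 10.05).

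With lamotrigine, the arrays that stood apart were all numbered 2, which the labels give as the same rat, in 3 regions. Rab14 B read 10.53 in striatum (others 10.43 to 10.46), Rab14 A 11.39 in striatum (11.04 to 11.14), Rab14 C 9.11 in hippocampus (9.56 to 9.63) and Rab10 B 8.99 in cortex (8.69 to 8.76). Rab14 and Rab10 are among the genes that differed between vehicles.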

How the results depend on the processing

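Counts of called Rab probe sets moved most with scaling. Shares of all probe sets called under the other settings are not given, apart from 0 for LiCl in cortex with the spread as a covariate. The changes in count are therefore not read as particular to Rab genes. For LiCl in cortex the count of 17 became 4 with quantile normalization and 0 with the array spread as a covariate, for the LiCl effect by region 24 became 9 and 0, and for the vehicles in hippocampus 31 became 8 with the spread as a covariate. The spread separates LiCl from chow vehicle in cortex without overlap, so there the covariate also takes up part of the group difference. In striatum the spreads of these groups overlap. In hippocampus the spreads of LiCl and of injection vehicle overlap those of chow vehicle only through chow vehicle 5 (3.56). The vehicle means there were 3.61 with injection and 3.48 with chow, so the covariate also takes up part of that group difference. For LiCl in hippocampus the count of 0 became 1 with a filter on dim probe sets and 1 with 1 fit of 60 arrays. Leaving out 1 array gave 0 to 2 for LiCl in hippocampus (1 without LiCl 4, 2 without chow vehicle 5), 7 to 16 in cortex, and 13 to 28 for the LiCl effect by region. It gave 26 to 34, 28 to 33 and 12 to 16 for the vehicles in hippocampus, cortex and striatum, and 42 to 48, 55 to 61 and 59 to 64 for hippocampus minus cortex, striatum minus cortex and striatum minus hippocampus. With each array centred, the split between hippocampus and cortex was 43 higher to 12 lower (31 to 15 as reported) and between striatum and cortex 36 to 27 (27 to 31 as reported), which quantile normalization made 31 to 25. Rab14 D, striatum minus hippocampus, was 0.0143 in the chow vehicle groups alone and -0.14 as reported. With the replicate number as a block the counts for LiCl were 0, 17 and 0 in hippocampus, cortex and striatum, for the vehicles 28, 34 and 13, and for lamotrigine 0. Samples of the same number in 2 groups of a region correlated between -0.54 and 0.24, so the block is not a pairing. In the injection vehicle groups, blocked by animal, the region counts were 42 (hippocampus minus cortex), 40 (striatum minus cortex) and 60 (striatum minus hippocampus). Over 209 named results, 4556 values under an alternative kept their direction and their side of the threshold, 440 lost their call, 5 gained one and 1 reversed. Most of the 4556 come from leaving out 1 array, and some belong to results with no call to lose. With the array spread as a covariate, all 14 named results of LiCl in cortex and all 24 of the LiCl effect by region lost their call. With 5 arrays a group, differences that missed the threshold may still be real.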
